A study of Mus musculus with 12 samples.

Results

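Iron and heme handling genes were examined in mouse bone marrow-derived macrophages (BMDMs) stimulated with lipopolysaccharide (LPS) with or without a peptide inhibitor of Toll-like receptor (TLR) signaling. The set held 9 genes, taken by their gene symbol from the 23959 genes of the deposited expression table, and each of the 9 was present there once. They were Hmox1, Slc40a1, Tfrc, Slc11a1, Slc11a2, Fth1, Ftl1, Ireb2 and Aco1. All 9 exceeded the filter on low values, which 12315 genes of the table passed, and the lowest value of any member in any library was 9.89 FPKM, a read density scaled to transcript length and to library size.

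The cells were wild-type (WT) bone marrow cells grown for 7 days in 20 ng/ml macrophage colony-stimulating factor (M-CSF). Polyadenylated RNA was sequenced in 4 groups of 3 libraries. They were LPS alone for 2 h, LPS for 2 h after pretreatment with 1 μM of the inhibitor peptide cpTLR-i, LPS for 2 h after pretreatment with 10 μM cpTLR-i, and untreated control cells labelled 0 h. The peptide joins a sequence from the TIR domain of the adaptor TIRAP to a cell-penetrating sequence, and the comparisons address how it alters the response of macrophages to LPS. Treatment and time cannot be told apart in the comparisons with control, since the control cells have the earlier time label. No library of peptide without LPS, or of another peptide with LPS, was analysed here. Separate mice or cultures are not stated for the replicates. Each p-value therefore refers to the variation among replicate libraries, pooled over the 4 groups, part or all of which may be technical. The spread of each gene was also drawn toward that of genes with similar levels.

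Macrophages take up senescent red blood cells and recycle their iron. Heme oxygenase breaks heme down into biliverdin, carbon monoxide and free iron, and the iron is either stored in ferritin or returned to the plasma through ferroportin. Iron regulatory proteins adjust several of these steps after transcription. When iron is scarce, they bind a hairpin in messenger RNA, the iron-responsive element (IRE), which blocks translation when it lies in the 5′ untranslated region (UTR) and stabilizes the transcript when it lies in the 3′ UTR. RNA-seq reads the transcript level and not the translation step.

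The IRE sequences of Fth1, Ftl1 and Tfrc are shown because these members carry the element at opposite ends of the transcript. The sequences were read 5′ to 3′ from GENCODE transcripts on GRCm38, the assembly also called mm10, with the bulged C and the CAGTG of the loop in capitals.
Fth1 5′ UTR, chr19:9982732-9982761, plus strand: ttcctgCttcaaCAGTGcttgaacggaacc
Ftl1 5′ UTR, chr7:45459778-45459807, minus strand: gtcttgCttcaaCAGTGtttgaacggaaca
Tfrc 3′ UTR, element 1, chr16:32631219-32631248, plus strand: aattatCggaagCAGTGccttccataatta
Tfrc 3′ UTR, element 2, chr16:32631598-32631627, plus strand: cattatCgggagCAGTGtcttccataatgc
Tfrc 3′ UTR, element 3, chr16:32631663-32631692, plus strand: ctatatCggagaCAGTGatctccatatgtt
Tfrc 3′ UTR, element 4, chr16:32631710-32631739, plus strand: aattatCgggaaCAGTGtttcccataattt

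The search looked on the transcript strand for the bulged C, 5 stem bases, the loop CAGTGN and 5 bases that pair with the stem, G-U pairs allowed. A match is a description of the letters and not proof of a working element. Both ferritin matches lay within the last 200 bases of the 5′ UTR. Of 11170 genes with a 5′ UTR of at least 200 bases, 11 held a match in those last 200 bases, or 0.0985%. Over the first 2458 bases of the 3′ UTR, which is the full length in Tfrc, 41 of 3987 genes held a match, or 1.03%. Tfrc was the 1 gene with 4 matches there. Matches in the other members are not reported here. The choice of Fth1, Ftl1 and Tfrc does not mean that the other members lack the element.

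Facts of the whole data set frame the values that follow. Replicate libraries correlated at 0.995 to 0.997 on the log2 scale. Of the 12315 tested genes, 46.8% were called in LPS against control, with 11% higher and 35.8% lower, a call being a gene past 1.5-fold (0.585 on the log2 scale) whose adjusted p was below 0.05. The median gene shifted by −0.39 (log2) in that comparison, by 0.06 with 1 μM against LPS, by 0.22 with 10 μM against LPS and by −0.17 with 10 μM against control. FPKM are shares of each library, so a small change of a member has to be read against these shifts. All 8 macrophage markers were above 1 FPKM, with summed levels of 12529 to 12787 FPKM with LPS, 12574 to 13371 FPKM with 1 μM, 12179 to 12470 FPKM with 10 μM and 14317 to 14889.6 FPKM in control. Single markers can change under such a sum. With 10 μM against LPS, 2 of the 8 were called lower and 0 higher, beside 9.44% and 21.5% of all tested genes. Erythroid markers were near 0, with sums of 0 to 0.145 FPKM over the 5 markers of the table. The 9 neutrophil markers summed to 35.6 to 36.3 FPKM with LPS, 29.1 to 33.9 FPKM with 1 μM, 41.5 to 55.1 FPKM with 10 μM and 13.3 to 16.3 FPKM in control, and their part in the results was not tested.

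In LPS against control, 3 of the 9 members were called, against 46.8% of all tested genes. Slc40a1 and Hmox1 were lower, and Slc11a2 was higher. With 10 μM against LPS alone, 2 of the 9 were called, both higher (Hmox1 and Slc11a2). Of all tested genes 31% were called there, 21.5% higher and 9.44% lower. Between the concentrations 1 of the 9 was called (Hmox1, higher with 10 μM), beside 25% of all tested genes, 15.9% higher and 9.05% lower. In 10 μM against control, 3 of the 9 were called (Hmox1 and Slc11a2 higher, Slc40a1 lower), beside 25.7% of all tested genes, 8.57% higher and 17.1% lower. With 1 μM against LPS alone, 0 of the 9 were called by limma, beside 1.12% of all tested genes, 0.495% higher and 0.625% lower, and the count was also 0 at an unadjusted p under 0.05 with the same fold minimum. The members' counts were thus at or below the share over all genes in 4 of these 5 comparisons, and the results below concern single genes.

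With no fold minimum, 8 of the 9 members had an adjusted p under 0.05 in LPS against control (86.5% of all tested genes), 5 with 10 μM against LPS (73.8%), 7 with 10 μM against 1 μM (67.8%), 6 with 10 μM against control (71.4%) and 3 with 1 μM against LPS (19%). The 3 at 1 μM were Hmox1, Slc11a2 and Ftl1, all higher. The library values of the 2 groups did not overlap for 9 members in LPS against control (87.6% of all tested genes), 5 with 10 μM against LPS (75%), 7 with 10 μM against 1 μM (69.1%), 7 with 10 μM against control (72.5%) and 5 with 1 μM against LPS (38.5%). Separation of the libraries was therefore common over the whole table and is given below as a description.

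**Figure D1:**
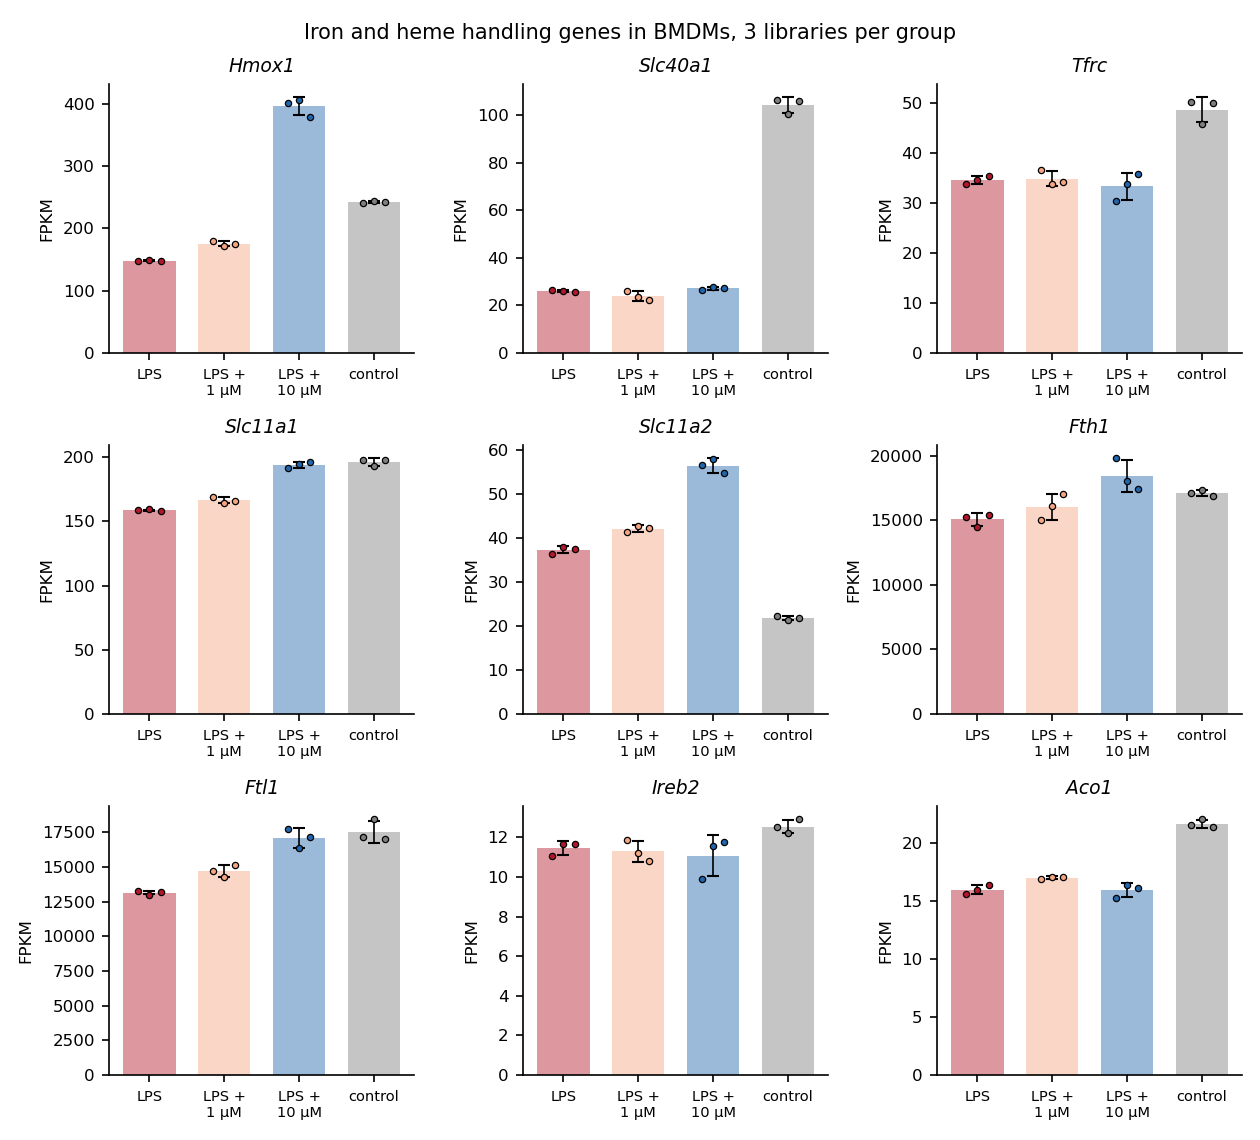
FPKM (vertical axis, from 0) of the 9 genes in 4 groups. Points are the 3 libraries of a group, bars the mean and whiskers 1 SD; Hmox1 is highest with 10 μM, at 379.6 to 407 FPKM, and Slc40a1 is at 22.2 to 27.8 FPKM in all 9 LPS-treated libraries against 101 to 106 FPKM in control.

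Hmox1 (gene ID 15368, chr8:75093618-75100593) encodes the inducible heme oxygenase. It had 148, 149 and 148 FPKM with LPS alone, 179.9, 172 and 174 FPKM with 1 μM, 402, 407 and 379.6 FPKM with 10 μM, and 241, 245 and 243 FPKM in control. The libraries of the 4 groups did not overlap in any pair, and the order was LPS, 1 μM, control and 10 μM. In LPS against control Hmox1 fell by 38.9% in mean FPKM (log2 fold change −0.71 ± 0.03 SE, adjusted p = 8.15e-11, limma). In bulk RNA, fewer cells that express a gene and less of its RNA per cell cannot be told apart. With 10 μM it was 2.67-fold the level with LPS alone (log2 fold change 1.41 ± 0.03, adjusted p = 1.42e-13) and 1.63-fold the level in control (0.70 ± 0.03, adjusted p = 2.82e-10). Hmox1 was thus called in opposite directions against control, lower with LPS alone and higher with LPS and 10 μM.

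The difference of Hmox1 from LPS alone was smaller at the lower concentration. At 1 μM the difference from LPS alone was 0.24 ± 0.03 (adjusted p = 2.54e-04), which is under the fold minimum although all 3 libraries were above all 3 libraries with LPS alone. Between the concentrations Hmox1 was higher with 10 μM by 1.17 ± 0.03 (adjusted p = 1.15e-12). After median-ratio scaling of the libraries, the difference of LPS from control was −0.29 and no longer passed the fold minimum, and the difference of 10 μM from LPS was 1.17.

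Slc40a1 (gene ID 53945, chr1:45908070-45926532) encodes ferroportin, the exporter that releases iron from the cell. It had 26.5, 26.3 and 25.7 FPKM with LPS alone, 26.2, 23.6 and 22.2 FPKM with 1 μM, 26.5, 27.8 and 27.4 FPKM with 10 μM, and 106, 101 and 106 FPKM in control. All 9 libraries with LPS lay far below control, and the 3 groups with LPS lay close to each other. Its mean FPKM fell by 74.9% in LPS against control (log2 fold change −1.99 ± 0.05, adjusted p = 4.87e-13), which made it the member with the largest fall. With 10 μM it stayed called lower than control, at −1.93 ± 0.05 (adjusted p = 2.20e-12).

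Neither concentration gave a call for Slc40a1 against LPS alone. With 10 μM the difference from LPS was 0.06 with a 95% interval of −0.05 to 0.17 (adjusted p = 0.33), and after median-ratio scaling it was −0.18. With 1 μM the difference was −0.13, with an interval of −0.24 to −0.02 (adjusted p = 0.103). The 10 μM libraries were all above the 1 μM libraries, by 0.18 ± 0.05 (adjusted p = 0.00621), which is under the fold minimum.

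Tfrc (gene ID 22042, chr16:32608896-32632794) encodes the transferrin receptor, which takes up transferrin-bound iron. It had 33.8, 34.6 and 35.4 FPKM with LPS alone, 36.7, 33.9 and 34.2 FPKM with 1 μM, 30.5, 33.8 and 35.8 FPKM with 10 μM, and 50.3, 45.8 and 49.97 FPKM in control. The control libraries were above all others, and the 3 groups with LPS overlapped. The difference of LPS from control was −0.49 ± 0.06 (adjusted p = 2.51e-06) and did not pass the fold minimum, against a shift of −0.39 for the median gene, and it was −0.068 after median-ratio scaling. Against LPS alone the difference was −0.05 with 10 μM (interval −0.18 to 0.07) and 0.01 with 1 μM (interval −0.11 to 0.13). After that scaling these differences were −0.30 with 10 μM and −0.056 with 1 μM.

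The difference of Tfrc with 10 μM from control, −0.54 ± 0.06 (adjusted p = 1.90e-06), lay close to the fold minimum of 0.585. It passed that minimum without control replicate 2, at −0.59, and without the 10 μM replicate 3, at −0.60. After median-ratio scaling it was −0.36, farther from the minimum. Tfrc, which carries the 3′ UTR elements shown above, was thus not called in any of the 5 comparisons.

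Slc11a2 (gene ID 18174, chr15:100387898-100424209) encodes DMT1, a transporter that moves ferrous iron across the plasma and endosomal membranes. It had 36.5, 38.0 and 37.6 FPKM with LPS alone, 41.4, 42.9 and 42.3 FPKM with 1 μM, 56.7, 58.1 and 54.7 FPKM with 10 μM, and 22.2, 21.4 and 21.8 FPKM in control. It is the 1 member whose level was above control in every LPS library, and no pair of groups overlapped. It was 1.72-fold higher with LPS than in control (log2 fold change 0.77 ± 0.03, adjusted p = 9.27e-11), where the median gene went down.

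With 10 μM Slc11a2 was 1.51-fold the level with LPS alone (0.59 ± 0.03, adjusted p = 2.38e-09) and 2.59-fold the level in control (1.36 ± 0.03, adjusted p = 9.72e-13). The call against LPS stands just past the fold minimum of 0.585. It was lost at 0.57 without the 10 μM replicate 2, at 0.58 without LPS replicate 1, at 0.57 in TPM (a unit in which every library has the same total), at 0.58 with a pseudocount of 1 and at 0.35 after median-ratio scaling. With 1 μM the difference was 0.17 ± 0.03 (adjusted p = 0.00330), and the 10 μM libraries were above the 1 μM libraries by 0.42 ± 0.03 (adjusted p = 1.08e-07), both under the fold minimum. Its mean level was thus farthest from control with 10 μM.

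Slc11a1 (gene ID 18173, chr1:74375014-74386057) encodes NRAMP1, the divalent metal transporter of the phagosome and a resistance gene against intracellular bacteria in mice. It had 158, 159 and 158 FPKM with LPS alone, 169, 164 and 166 FPKM with 1 μM, 192, 194 and 196 FPKM with 10 μM, and 198, 193 and 198 FPKM in control. Its level with 10 μM overlapped control and lay above both other groups. It was called in none of the 5 comparisons. The differences were −0.31 ± 0.02 in LPS against control (adjusted p = 5.54e-08), 0.29 ± 0.02 with 10 μM against LPS (adjusted p = 1.57e-07) and −0.02 ± 0.02 with 10 μM against control (adjusted p = 0.581). After median-ratio scaling the first turned to 0.12, the second fell to 0.048 and the last turned to 0.16. The paralogs Slc11a1 and Slc11a2 had opposite signs in LPS against control in FPKM, and after that scaling both were positive.

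**Figure D2:**
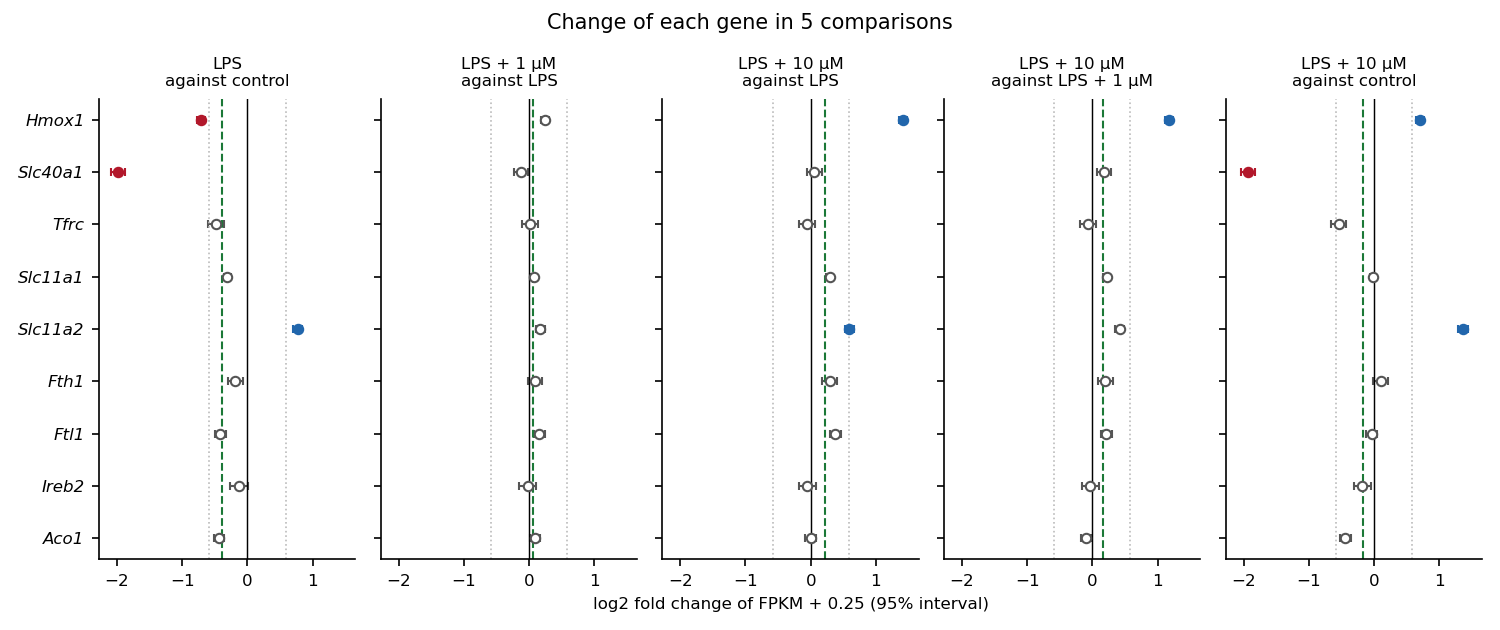
Log2 fold change of FPKM + 0.25 (horizontal axis) of the 9 genes in 5 comparisons, with 95% intervals. Filled points are called (blue higher, red lower), open points are not called, the dashed green line is the median of all 12315 tested genes and the dotted lines are 1.5-fold; Hmox1 is left of 0 with LPS alone against control, at −0.71, and right of 0 with 10 μM against control, at 0.70.

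Ferritin stores iron in a shell of heavy and light chains, and the heavy chain oxidizes ferrous iron. The heavy chain gene Fth1 (gene ID 14319, chr19:9980600-9985111) had 15294, 14467 and 15450.4 FPKM with LPS alone, 15009, 16139 and 17014 FPKM with 1 μM, 19808, 18060.4 and 17408 FPKM with 10 μM, and 17083, 17382 and 16888 FPKM in control. The light chain gene Ftl1 (gene ID 14325, chr7:45457944-45459886) had 13288, 13006 and 13192 FPKM with LPS alone, 14707, 14258 and 15156 FPKM with 1 μM, 17721, 16353 and 17198 FPKM with 10 μM, and 17162, 18442 and 17025 FPKM in control. Both had their lowest mean with LPS alone, and the libraries with 10 μM were all above those with LPS alone.

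Neither ferritin gene was called in any of the 5 comparisons. With 10 μM against LPS the difference was 0.29 ± 0.05 for Fth1 (adjusted p = 2.44e-04) and 0.38 ± 0.04 for Ftl1 (adjusted p = 1.76e-06), beside a shift of 0.22 for the median gene. In LPS against control it was −0.18 ± 0.05 for Fth1 (adjusted p = 0.00512) and −0.41 ± 0.04 for Ftl1 (adjusted p = 4.25e-07), and median-ratio scaling turned these to 0.24 and 0.01. The direction of the ferritin genes in LPS against control therefore depends on the scaling of the libraries. With 10 μM against LPS the differences shrank to 0.045 for Fth1 and 0.13 for Ftl1 after that scaling. After quantile normalization they were 5.3e-15 for Fth1 and 0 for Ftl1. That method gives a gene of the same rank in every library 1 common value, so it cannot show a change of such a gene.

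Ferritin messenger RNA made up a large share of these libraries. Fth1 and Ftl1 together took 6.92% ± 0.19 (SD, n = 3) of all FPKM with LPS alone, 7.39% ± 0.35 with 1 μM, 8.56% ± 0.49 with 10 μM and 8.36% ± 0.26 in control. The ratio of Fth1 to Ftl1 in FPKM, which is per length, was 1.14 ± 0.03 with LPS alone, 1.09 ± 0.06 with 1 μM, 1.08 ± 0.06 with 10 μM and 0.977 ± 0.030 in control. The Ftl1 values are uncertain because the table lists 3 near-identical copies that can share its reads. The pseudogenes Ftl1-ps1, Ftl2-ps and Ftl1-ps2 together amounted to 5.60% ± 0.19 of Ftl1 with LPS alone, 5.91% ± 0.38 with 1 μM, 5.90% ± 0.39 with 10 μM and 5.84% ± 0.26 in control. Adding them to Ftl1, a step chosen after seeing the data, changed no call of a member.

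Ireb2 (gene ID 64602, chr9:54862658-54912534) and Aco1 (gene ID 11428, chr4:40143265-40199009) encode the iron regulatory proteins IRP2 and IRP1. IRP1 also serves as the cytosolic aconitase when it holds an iron-sulfur cluster. Ireb2 had 11.1, 11.7 and 11.7 FPKM with LPS alone, 11.9, 11.2 and 10.8 FPKM with 1 μM, 9.89, 11.6 and 11.8 FPKM with 10 μM, and 12.5, 12.2 and 12.9 FPKM in control. The control libraries were highest by a small margin. Its difference in LPS against control was −0.13 ± 0.06 (adjusted p = 0.0670), and median-ratio scaling turned it to 0.29. Its difference with 10 μM against LPS was −0.05 with an interval of −0.19 to 0.08.

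Aco1 had 15.6, 16.0 and 16.3 FPKM with LPS alone, 16.9, 17.1 and 17.1 FPKM with 1 μM, 15.3, 16.4 and 16.1 FPKM with 10 μM, and 21.6, 22.0 and 21.4 FPKM in control. All LPS-treated libraries were below control. The difference in LPS against control was −0.44 ± 0.04 (adjusted p = 9.76e-08) and the difference with 10 μM against control was also −0.44 ± 0.04 (adjusted p = 2.33e-07), neither past the fold minimum. The median gene shifted by −0.39 and −0.17 in these comparisons, and after median-ratio scaling the differences of Aco1 were −0.018 and −0.26. It did not pass the test with 10 μM against LPS, at −0.00 with an interval of −0.08 to 0.08. Neither iron regulatory protein gene was called in any of the 5 comparisons, and the intervals against LPS alone exclude a 1.5-fold difference for both at 10 μM. After median-ratio scaling the differences with 10 μM against LPS were −0.24 for Aco1 and −0.29 for Ireb2, also under the fold minimum.

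The distance from control with peptide was set against the distance with LPS alone on the log2 scale, as a share of the LPS change that remained, for the 3 members called in LPS against control. For Slc40a1 the share was 106% ± 6.06 with 1 μM and 97.2% ± 1.76 with 10 μM (SD, n = 3 each). For Hmox1 it was 66.3% ± 4.71 with 1 μM and −99.1% ± 7.52 with 10 μM, where a negative share means a level on the other side of control. For Slc11a2 it was 122% ± 3.32 with 1 μM and 177% ± 5.54 with 10 μM. These SDs cover only the 3 libraries of the peptide group, since the means of LPS alone and control were held fixed. The size of these shares depends on the scaling. After median-ratio scaling they were −307% for Hmox1, 112% for Slc40a1 and 129% for Slc11a2 with 10 μM. The 3 genes thus stood in different places at 10 μM. Slc40a1 stayed where LPS alone had it, Hmox1 lay beyond control, and Slc11a2 lay farther from control than with LPS alone.

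The genes whose log2 levels followed a called member most closely over the 12 libraries were found by Pearson's r, as a description with no test, since the 12 libraries share 4 group means. Hmox1 was followed by Gclc (r = 0.999), Iqsec1 (0.998) and Tent5c (0.997). Gclc, the catalytic subunit of the enzyme for the first step of glutathione synthesis, averaged 4.54 FPKM with LPS alone, 5.89 FPKM with 1 μM, 24.0 FPKM with 10 μM and 10.7 FPKM in control. Slc40a1 was followed by Zcchc24 (0.998), Plxnb2 (0.997) and Klc4 (0.996). Plxnb2, a semaphorin receptor, averaged 53.2 FPKM with LPS alone, 52.5 FPKM with 1 μM, 55.0 FPKM with 10 μM and 90.9 FPKM in control. Slc11a2 was followed by Mcoln2 (0.997) and Slc2a1 (0.997). Slc2a1, the glucose transporter GLUT1, averaged 26.9 FPKM with LPS alone, 30.5 FPKM with 1 μM, 44.3 FPKM with 10 μM and 14.1 FPKM in control.

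The other genes of iron and heme biology were counted over 7 lists of 93 genes, of which 88 were in the table and 73 were tested. In 10 μM against LPS, 10 rose and 5 fell, which is 20.5% of the 73 beside 31% of all tested genes. In LPS against control, 12 rose and 19 fell, which is 42.5% beside 46.8% of all tested genes. With 1 μM against LPS 0 of the 73 were called by limma, beside 1.12% of all tested genes. After median-ratio scaling the counts were 3 higher and 8 lower with 10 μM against LPS, and 16 higher and 4 lower in LPS against control. The majority direction of these lists therefore depends on the scaling. The counts include Cp, Hamp and Ltf, which passed the filter on low values only through the groups in which they are high.

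**Figure D3:**
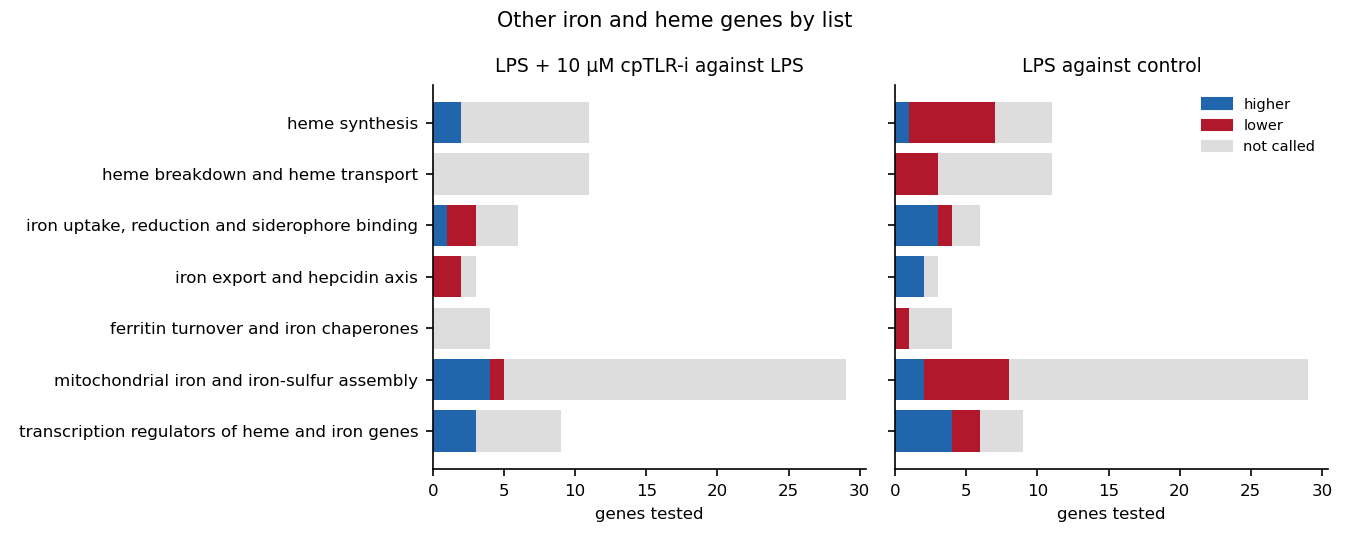
Number of tested genes (horizontal axis) in 7 lists of iron and heme genes that were called higher (blue), called lower (red) or not called (grey). The left panel is 10 μM against LPS, with 10 higher and 5 lower over the lists, and the right panel is LPS against control, with 12 higher and 19 lower.

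Among genes of heme breakdown and heme transport, 0 of 11 were called with 10 μM against LPS and 3 of 11 (27.3%) fell in LPS against control, beside 31% of all tested genes called in the first comparison and 35.8% called lower in the second. Hmox2, the constitutive heme oxygenase, averaged 33.6 ± 0.941 FPKM with LPS alone, 33.6 ± 0.433 FPKM with 1 μM, 36.9 ± 2.69 FPKM with 10 μM and 58.2 ± 1.60 FPKM in control (SD, n = 3 each). It was called lower with LPS (−0.79 ± 0.05, adjusted p = 2.69e-09) and its difference with 10 μM against LPS was 0.13 ± 0.05 (adjusted p = 0.0216, not called). In 10 μM against control Hmox2 was called lower, at −0.66 ± 0.05, where Hmox1 was called higher. The call of Hmox2 in LPS against control was lost after median-ratio scaling (−0.37), which put its difference with 10 μM against LPS at −0.11. Together these values place Hmox2 under the fold minimum in 10 μM against control too, a comparison not recomputed for this gene. The other 2 that fell with LPS were Flvcr1, described as a heme exporter, at −1.05, and Blvra, biliverdin reductase A, at −0.59. The call of Blvra was lost without control replicate 2 (−0.57), without LPS replicate 1 (−0.58), in TPM (−0.57), with a pseudocount of 1 (−0.58) and after median-ratio scaling (−0.17). Flvcr1 was at −0.63 after that scaling and remained called.

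In heme synthesis, 6 of 11 tested genes fell and 1 rose in LPS against control, and 2 of 11 rose with 10 μM against LPS. Of all tested genes 35.8% were lower and 11% higher in the first comparison, and 21.5% were higher in the second. The gene that rose in both was Alas1, the rate-limiting enzyme of heme synthesis outside red cells. Alas1 had 91.9, 88.8 and 90.9 FPKM with LPS alone, 105, 98.8 and 106 FPKM with 1 μM, 133, 135 and 141 FPKM with 10 μM, and 55.0, 56.2 and 55.5 FPKM in control. Its differences were 0.59 ± 0.03 with 10 μM against LPS and 0.70 ± 0.03 in LPS against control, the same order of groups as in Slc11a2. The call with 10 μM against LPS was lost without LPS replicate 2 (0.58), without the 10 μM replicate 3 (0.57), in TPM (0.57) and after median-ratio scaling (0.35), which put the difference in LPS against control at 1.12. Slc25a38, the mitochondrial glycine carrier, had the largest fall of the list with LPS, at −1.32, and was 1.04 higher with 10 μM than with LPS alone. Cpox and Uros, enzymes of the porphyrin steps, fell with LPS by 0.86 and 0.71 on the log2 scale. Both calls were lost after median-ratio scaling (−0.47 for Cpox and −0.32 for Uros) and after quantile normalization (−0.36 for Cpox and −0.23 for Uros), which put Slc25a38 at −0.81.

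Genes of iron uptake and mitochondrial import were called in both directions. Slc25a37, mitoferrin 1 of the inner mitochondrial membrane, had 51.9, 53.8 and 54.0 FPKM with LPS alone, 49.1, 48.1 and 46.9 FPKM with 1 μM, 10.8, 11.6 and 11.7 FPKM with 10 μM, and 7.13, 6.37 and 7.29 FPKM in control. It rose by 2.90 ± 0.05 with LPS (adjusted p = 8.02e-15) and was lower with 10 μM than with LPS alone (log2 fold change −2.20 ± 0.05, adjusted p = 2.86e-13). Its paralog Slc25a28, mitoferrin 2, was called with 10 μM in the other direction, at 0.84 ± 0.06 against LPS, and had 6.90 ± 0.361 FPKM with LPS alone, 12.5 ± 0.284 FPKM with 10 μM and 7.08 ± 0.566 FPKM in control. Slc39a14, the transporter ZIP14 that imports iron not bound to transferrin, averaged 12.4 ± 0.929 FPKM with LPS alone, 14.2 ± 1.00 FPKM with 1 μM, 5.56 ± 0.354 FPKM with 10 μM and 2.46 ± 0.241 FPKM in control. It rose by 2.22 in LPS against control and had a log2 fold change of −1.12 with 10 μM against LPS.

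Lcn2, lipocalin 2, binds the iron carriers of bacteria. It had 8.61, 9.04 and 10.2 FPKM with LPS alone, 6.94, 7.80 and 9.45 FPKM with 1 μM, 3.33, 2.98 and 2.90 FPKM with 10 μM, and 0.610, 0.501 and 0.611 FPKM in control, with 3.53 in LPS against control and −1.52 with 10 μM against LPS. Ltf, lactoferrin, which is also one of the neutrophil markers, stayed under 1 FPKM in every library. It averaged 0.798 FPKM with LPS alone and 0.260 FPKM in control, and it is given with no test because all control libraries were under 0.5 FPKM and it entered through the other groups. Steap3, which reduces iron in the endosome after uptake through the transferrin receptor, went the other way, at −0.85 in LPS against control and 0.60 with 10 μM against LPS. Both calls of Steap3 were lost after median-ratio scaling (−0.43 and 0.36), and that with 10 μM also in TPM (0.58).

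In the export and hepcidin list, 3 of 11 genes were tested. Cp, ceruloplasmin, which oxidizes the iron that ferroportin exports, had 1.87, 1.85 and 1.93 FPKM with LPS alone, 1.25, 1.69 and 1.36 FPKM with 1 μM, 0.144, 0.117 and 0.151 FPKM with 10 μM, and 0.119, 0.0795 and 0.110 FPKM in control. All its 10 μM and control libraries were under the 0.5 FPKM of the filter, so Cp entered the test through the groups in which it is high, and its levels are given as a description with no test. Hamp, hepcidin, the peptide hormone that removes ferroportin protein from the membrane, was at 0.7002, 0.529 and 0.531 FPKM with LPS alone and 0.696, 0.402 and 1.06 FPKM with 1 μM. It was listed at 0, 0.0848 and 0 FPKM with 10 μM and at 0.0313, 0 and 0 FPKM in control. Hamp also entered the test only through libraries with LPS alone and 1 μM, and no fold or test is given for it.

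The list of ferritin turnover had 0 of 4 genes called with 10 μM against LPS and 1 of 4 in LPS against control, beside 31% and 46.8% of all tested genes. That gene was Ncoa4, the receptor that carries ferritin to the lysosome for degradation, with 57.8 ± 2.35 FPKM with LPS alone, 61.7 ± 4.93 FPKM with 1 μM, 74.1 ± 4.21 FPKM with 10 μM and 104 ± 3.46 FPKM in control. Its difference in LPS against control was −0.84 ± 0.06, and after median-ratio scaling it was −0.42 and not called. Fbxl5, the iron-sensing ubiquitin ligase subunit that targets IRP2, had differences of −0.12 in LPS against control and 0.28 with 10 μM against LPS and was not called. Of 29 mitochondrial and iron-sulfur genes, 4 rose and 1 fell with 10 μM against LPS, and 2 rose and 6 fell in LPS against control. These are 17.2% and 27.6% of the list, both below the 31% and 46.8% of all tested genes. Besides the mitoferrins, Hspa9 (0.73) and Isca1 (0.67) were among the risers with 10 μM, and Hscb (−1.27), Fdxr (−1.22) and Ciapin1 (0.99) among the genes called with LPS. The calls with 10 μM were lost after median-ratio scaling for Hspa9 (0.49) and Isca1 (0.44), and after quantile normalization for Isca1 (0.50), which put Fdxr in LPS against control at −0.67.

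Of 9 transcription regulators of heme and iron genes, 3 rose with 10 μM against LPS, and 4 rose and 2 fell in LPS against control. Of all tested genes 21.5% were higher in the first comparison, and 11% were higher and 35.8% lower in the second. Nfe2l2, which encodes NRF2, an activator of Hmox1, Fth1 and Gclc transcription, had 118, 121 and 116 FPKM with LPS alone, 152, 146 and 143 FPKM with 1 μM, 195, 203 and 208 FPKM with 10 μM, and 85.1, 85.6 and 87.5 FPKM in control. It was 0.77 ± 0.03 higher with 10 μM than with LPS alone (adjusted p = 1.81e-10), and its difference in LPS against control was 0.46 ± 0.03, under the fold minimum. For Nfe2l2, median-ratio scaling put the first difference at 0.53, no longer called, and the second at 0.88, called. Bach1, a heme-sensing repressor of Hmox1, averaged 13.2 ± 0.925 FPKM with LPS alone, 11.6 ± 0.487 FPKM with 1 μM, 16.9 ± 1.15 FPKM with 10 μM and 21.6 ± 0.842 FPKM in control. It fell with LPS (−0.70 ± 0.06), a call that was lost after median-ratio scaling (−0.28) and after quantile normalization (−0.58). Its difference with 10 μM against LPS was 0.35 ± 0.06, not called.

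The small MAF genes, whose products pair with NRF2 and BACH1, were called in both directions. Mafg averaged 11.1 ± 1.13 FPKM with LPS alone, 12.7 ± 0.651 FPKM with 1 μM, 23.5 ± 0.564 FPKM with 10 μM and 17.7 ± 0.394 FPKM in control, with −0.66 in LPS against control and 1.06 with 10 μM against LPS. The lower level of Mafg with LPS was not called without LPS replicate 2 (−0.58), after median-ratio scaling (−0.24) or after quantile normalization (−0.48). Among these genes Mafg had the group order of Hmox1, lowest with LPS alone and highest with 10 μM. Maff rose by 4.14 and Mafk by 1.27 in LPS against control, and neither was called with 10 μM against LPS. Spic, a factor for the red-pulp macrophage program, rose by 1.26 with LPS and by a further 0.68 with 10 μM, at 5.60 ± 0.418 FPKM with 10 μM against 3.42 ± 0.382 FPKM with LPS alone. The call of Spic with 10 μM was lost with a pseudocount of 1 (0.58), after median-ratio scaling (0.45) and after quantile normalization (0.41). Hif1a rose by 1.59 with LPS. In 10 μM against LPS the differences of Hif1a and Mafk were both −0.58, short of a call. Hif1a was called there without LPS replicate 1 (−0.60), without the 10 μM replicate 2 (−0.59) and without the 10 μM replicate 3 (−0.59). Mafk was called there without LPS replicate 1 (−0.62), without LPS replicate 2 (−0.59) and without the 10 μM replicate 1 (−0.60). Both were also called lower in TPM (−0.60 for Hif1a and −0.61 for Mafk) and after median-ratio scaling (−0.82 for each), and Mafk after quantile normalization (−0.66).

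**Figure D4:**
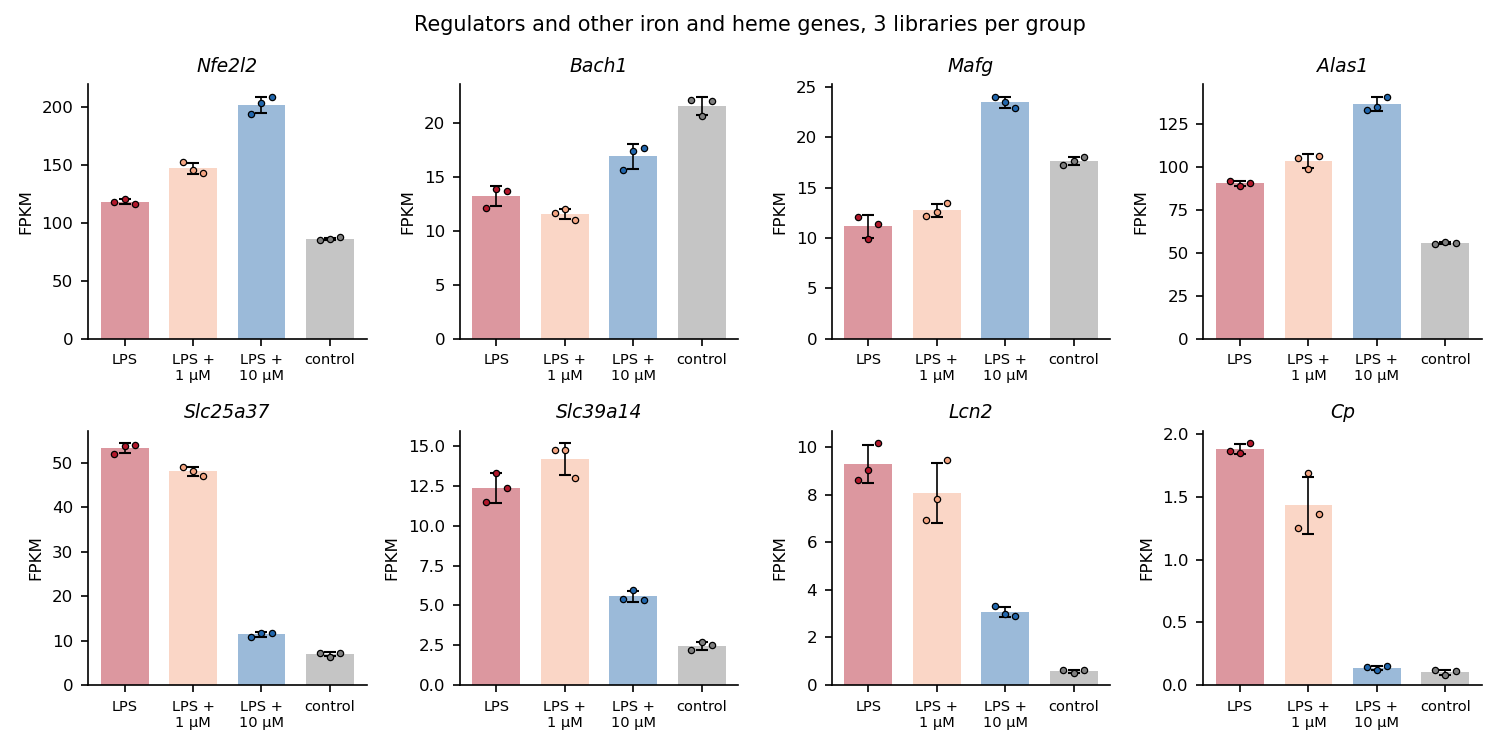
FPKM (vertical axis, from 0) of 8 other iron and heme genes in 4 groups, with points for the 3 libraries, bars for means and whiskers for 1 SD. Nfe2l2 and Alas1 are highest with 10 μM, at 195 to 208 and 133 to 141 FPKM, whereas Slc25a37, Slc39a14, Lcn2 and Cp are lower with 10 μM than with LPS alone.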

How the data were processed

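Total RNA of BMDMs was made into polyA-selected libraries, and reads were aligned by the authors to mm10 with HISAT2 and quantified with StringTie. The authors deposited FPKM and TPM values per gene for 12 libraries. The file holds no read counts, so DESeq2, used in the study, was not run, the depth per library is unknown and no counting interval is given. FPKM sums of a library lay between 403473 and 422014. The sources differ on whether the library kit kept the strand, so overlapping genes may share reads. Genes that reached 0.5 FPKM in 3 or more of the 12 libraries were tested as log2(FPKM + 0.25) with limma 3.58.1 in R 4.3.3 (lmFit, eBayes with trend, all 4 groups in 1 fit, two-sided, Benjamini-Hochberg adjustment over all 12315 genes). The pseudocount understates changes of low genes. A call needed an adjusted p under 0.05 and more than 1.5-fold. The fit was tested on simulated data in which a small part of the genes changed and the median gene did not shift. That test therefore does not cover the wide shifts of these data. Alternatives covered the unit, pseudocount, filter, scaling, samples in the fit, replicate block, threshold and each library left out.

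The members and the gene lists were chosen with earlier results of these data known. All 9 members are named, up to 4 called genes of each list with the largest change in LPS against control or 10 μM against LPS, Hmox2, Fbxl5, Ncoa4, Bach1 and Nfe2l2 always, and the 3 genes most like each called member. Some genes that this rule names are not reported here. Gene positions are from RefSeq on GRCm38.p6, and IRE sequences from GENCODE M21 transcripts. Figures were drawn with matplotlib 3.10.9 in Python 3.11.15.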

Additional observations from a re-analysis of the deposited data

How the results depend on the processing

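Over 24 alternatives, 1080 log2 differences of the 9 genes were recomputed. Of these, 1031 changed neither sign nor call, 6 lost a call, 22 gained one and 21 changed sign. A difference that fell to 0 with no change of call counts among the 1031. An example is Ftl1 with 10 μM against LPS after quantile normalization. Of 1436 values for 30 other genes, 1357 changed neither sign nor call, 34 lost a call, 30 gained one and 15 changed sign. The cause of these changes was not tested. Members called with 10 μM against LPS numbered 1 in TPM, with a pseudocount of 1 and after median-ratio scaling, since Slc11a2 lost its call, and 1 to 2 when single libraries were left out. With no fold minimum the members called were 8 in LPS against control, 3 with 1 μM against LPS, 5 with 10 μM against LPS, 7 with 10 μM against 1 μM and 6 with 10 μM against control, and the other iron and heme genes called were 64 in LPS against control and 54 with 10 μM against LPS. Median-ratio scaling gave 20 such other genes in LPS against control.

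Sign changes in LPS against control after median-ratio scaling were Fth1 0.24, Ftl1 0.0094, Slc11a1 0.12, Ireb2 0.29, Slc25a28 0.37, Hspa9 0.26 and Fbxl5 0.30, and after quantile normalization Fth1 0.12, Ireb2 0.11, Slc25a28 0.33 and Fbxl5 0.19. With 10 μM against LPS they were Slc40a1 −0.18, Cpox −0.019, Hmox2 −0.11, Ltf −0.051 and Fdxr −0.031 after median-ratio scaling, and Cpox −0.083, Ltf −0.15 and Fdxr −0.14 after quantile normalization. With 10 μM against control, median-ratio scaling gave Ftl1 0.14 and Slc11a1 0.16. Tfrc with 1 μM against LPS was −0.017 in TPM, −0.056 after median-ratio scaling and −0.020 after quantile normalization. With single libraries left out, Tfrc ranged from −0.025 to 0.033 with 1 μM against LPS and from −0.11 to 0.0075 with 10 μM against LPS, Aco1 from −0.023 to 0.028 with 10 μM against LPS, and Uros from −0.15 to 0.011 there. Ireb2 ranged from −0.056 to 0.010 with 1 μM against LPS, from −0.098 to 0.026 with 10 μM against LPS and from −0.077 to 0.047 with 10 μM against 1 μM, and Slc25a28 from −0.095 to 0.016 in LPS against control.

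The share of the LPS change that remained was, on the FPKM scale, 71.6% with 1 μM and −162% with 10 μM for Hmox1, and 131% and 223% for Slc11a2. After median-ratio scaling it was 40.1% and −307% for Hmox1, 112% with 10 μM for Slc40a1, and 109% and 129% for Slc11a2. In TPM it was 118% with 1 μM for Slc11a2.

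Over all genes, calls higher and lower were 2094 and 2284 after median-ratio scaling against 1355 and 4405 in FPKM for LPS against control, 44 and 114 against 61 and 77 for 1 μM against LPS, 1618 and 1532 against 2649 and 1163 for 10 μM against LPS, 1319 and 1388 against 1964 and 1114 for 10 μM against 1 μM, and 1440 and 1281 against 1056 and 2108 for 10 μM against control. Same-numbered libraries of different groups correlated at −0.165 to 0.153 in their deviations, and those with different numbers at −0.170 to 0.197. A higher mean correlation with their own number than with the others was found for 6 of 12 libraries. No pairing by replicate number was thus seen, but with so few libraries per group these values cannot exclude one. With the replicate block 3, 0, 2, 1 and 3 members were called (LPS against control, 1 μM against LPS, 10 μM against LPS, 10 μM against 1 μM, 10 μM against control), and 31 and 15 of the other iron and heme genes, the counts without it.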
